A study of Mus musculus with 2 samples.

Results

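The genes described here make cholesterol from acetyl-CoA or control that synthesis through the SREBP transcription factors. They were taken by gene symbol as a list of 31 genes, and all 31 were found among the 55536 genes of the deposited tables. By role, 20 encode enzymes of synthesis, 9 encode SREBP factors and the proteins that process or retain them, and 2 handle sterols elsewhere. Total RNA came from adrenal glands of male mice aged 36 days of the hybrid strain B6CASTF1/J, a cross of C57BL/6J with CAST/EiJ. The labels state no treatment and no engineered allele. Both libraries, made from 300 ng of RNA each with ERCC spike-in RNA, belong to the same group, so the data offer levels and the spread between libraries but no contrast between conditions and no p-value. Whether the 2 replicates are separate animals cannot be told from the labels, which differ on this between the tissue samples and the libraries made from them, and the spread between them may be technical.

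Cholesterol is built in the endoplasmic reticulum and peroxisome through mevalonate, isoprenoids, squalene and lanosterol, and the adrenal cortex uses it as the precursor of every steroid hormone. When membrane sterol is low, SCAP escorts the SREBP precursors to the Golgi, where the proteases encoded by Mbtps1 and Mbtps2 release the active factor, which binds sterol regulatory elements in promoters of synthesis genes. When sterol is plentiful, INSIG proteins hold SCAP and SREBP in the endoplasmic reticulum. Adrenal cells also take up lipoprotein cholesterol, so synthesis is only part of their supply.

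Of 35813366 expected counts in the gene table of replicate 1 the 31 genes held 98952, and of 30628771 in replicate 2 they held 55669. The cortex markers Star, Cyp11a1, Cyp11b1, Cyp21a1, Hsd3b1, Mc2r and Scarb1 and the 6 medulla markers were present in both libraries, as the tissue label says. Both libraries also held fat RNA. The 6 fat markers (Adipoq, Plin1, Cfd, Lep, Cidec and Ucp1) summed to 996 and 917 TPM. Of these, Ucp1 was at least 1.5-fold higher in replicate 2 and Lep in replicate 1. Replicate 2 stood apart in holding RNA of exocrine pancreas and more RNA of liver. The 6 exocrine pancreas markers summed to 8 counts in replicate 1 and to 265462 in replicate 2 (0.24 and 7254 TPM), with Pnlip and Cpa1 at 0 in replicate 1. The 6 liver markers were present in both libraries, with none at 0, and all were at least 1.5-fold higher in replicate 2. Their summed level was 13.7 and 116 TPM. In replicate 1 all 6 immediate early genes were at least 1.5-fold higher, among them Nr4a1 with 28730 counts against 335, and so were all 4 globin genes; the summed levels were 404 and 20.6 TPM for the early genes and 3160 and 1351 TPM for the globins. TPM, the deposited abundance corrected for transcript length and scaled to a common total, was spread differently too, because nuclear protein-coding genes took 31% of it in replicate 1 and 23.2% in replicate 2. A gene with the same share of coding RNA in both libraries thus has a lower TPM in replicate 2, and ratios between the libraries below were computed from expected counts scaled by TMM, a scaling that centres the bulk of genes.

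All 31 genes were expressed, from 2.52 TPM for Mylip in replicate 2 to 328 TPM for Dhcr7 in replicate 1. On the TMM scale 13 of the 31 were at least 1.5-fold higher in replicate 1 and 0 were so in replicate 2, while 5.30% of the 14780 genes tested, whose mean CPM (counts scaled to the library total) was 1 or more, were at least 1.5-fold higher in replicate 1 and 12.0% in replicate 2 (7.31% and 9.64% with DESeq2 size factors in place of TMM). The median log2 ratio, replicate 2 over replicate 1, was -0.40 over the 31 genes and 0.01 over all tested genes, whose middle 50% ran from -0.20 to 0.29. The synthesis enzymes carried 11 of the 13 genes past 1.5-fold, with a median log2 ratio of -0.67 over the 20. The SREBP control genes had 1 of 9 past that fold and a median of -0.14. Each ratio rests on 1 library against another, its interval covers counting error only, and in bulk tissue fewer cells of a type and less RNA per cell cannot be told apart. The cortex markers had a median log2 ratio of -0.37 with 2 of 7 past 1.5-fold in replicate 1 (Star and Scarb1), and a summed level of 15963 and 8789 TPM. The 6 medulla markers (Th, Dbh, Pnmt, Chga, Chgb and Npy) had a median log2 ratio of 0.46 on the same TMM scale, with Chgb past 1.5-fold in replicate 2, and a summed level of 1667 and 1884 TPM. None of the cortex or medulla markers was at 0. The part of the cortex and medulla markers in the ratios of the synthesis genes was not tested, nor was that of the fat, pancreas, liver, globin and immediate early genes.

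**Figure D1:**
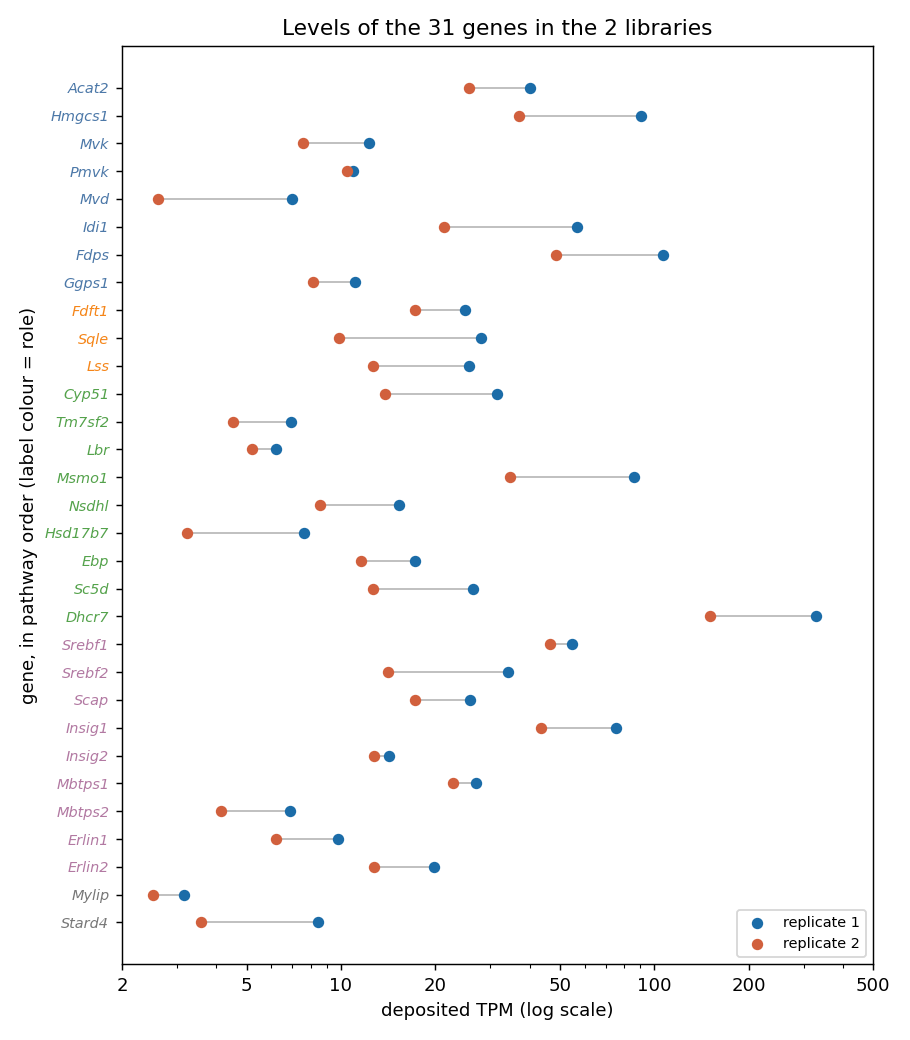
Deposited TPM (horizontal log axis) of each of the 31 genes (vertical axis, in pathway order, label colour by role) in replicate 1 (blue) and replicate 2 (orange). Dhcr7 lies far to the right at 328 and 150 TPM, Mylip and Mvd lie furthest left, and the blue point is the higher for every gene on this scale.

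The order of levels was much the same in both libraries: log2 TPM of the 31 genes gave a Pearson's r of 0.959 and a Spearman's rho of 0.933 between libraries, a description over genes of the same libraries and not over independent samples. The 20 synthesis genes summed to 939 TPM in replicate 1 and 446 TPM in replicate 2, a mean of 693 ± 349 TPM (SD, n = 2). Rescaled to nuclear protein-coding genes alone, which removes the difference in their share of each library, the sums were 3025 and 1919 on the same units. Synthesis therefore took a smaller part of the coding RNA in replicate 2 on that scale as well. A single enzyme, Dhcr7, held 34.9% and 33.7% of the synthesis sum.

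The mevalonate arm runs from acetyl-CoA to farnesyl and geranylgeranyl diphosphate, and 4 of its 8 genes were at least 1.5-fold higher in replicate 1. Hmgcs1, the cytosolic HMG-CoA synthase (chr13:119690379-119708260, mm10), had 9893 and 4582 expected counts and 90.6 and 37.0 TPM in replicates 1 and 2. Scaled by TMM, its ratio toward replicate 1 was 1.77-fold, with an exact 95% interval of 1.71 to 1.83 (brackets give it for the genes that follow, as replicate 1 over replicate 2 unless said otherwise). Mvd, the mevalonate diphosphate decarboxylase, was the scarcest gene of the arm, with 410 and 167 counts and 7.0 and 2.60 TPM. Its ratio of 2.01-fold (1.68 to 2.42) was the largest of the 8 and had the widest interval. Idi1, which isomerises isopentenyl diphosphate, had 5678 and 2415 counts, 56.6 and 21.4 TPM, and a ratio of 1.93-fold (1.84 to 2.02). Fdps, the farnesyl diphosphate synthase, led the arm at 106 and 48.7 TPM with a ratio of 1.63-fold (1.55 to 1.72).

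The other 4 genes of the arm stayed inside 1.5-fold. Acat2, the cytosolic thiolase that joins acetyl-CoA units, had 40.3 and 25.6 TPM and a ratio of 1.18-fold (1.11 to 1.25) toward replicate 1. Mvk, the mevalonate kinase, had 569 and 433 counts and 12.3 and 7.58 TPM, and its interval of 0.948 to 1.22-fold spanned equality. Pmvk, the next kinase, differed from the other 7 in sign: it had 411 counts in each library and, once scaled, was 1.22-fold higher in replicate 2 (1.06 to 1.40). Ggps1, which makes geranylgeranyl diphosphate for protein prenylation and so branches away from sterols, had 11.1 and 8.15 TPM and an interval of 0.991 to 1.21-fold. Mvk, Pmvk and Mvd encode consecutive enzymes, and their ratios ran from 1.22-fold toward replicate 2 to 2.01-fold toward replicate 1.

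Promoter stretches are shown for 3 genes of this arm, to set beside each other a gene with the sterol regulatory element letters and genes past and inside 1.5-fold. Each is the 150 bases before the RefSeq start site on GRCm38.p6 (mm10), read 5′ to 3′ on the gene's own strand, with no annotated exon in it. Hmgcs1 is chr13:119690201-119690350 on the plus strand, Mvd is chr8:122443423-122443572 on the minus strand and Mvk is chr5:114444119-114444268 on the plus strand. Capitals mark, on either strand, TCACCCCAC (a form of the sterol regulatory element), CCAAT (the letters NF-Y binds), GGGCGG (the letters Sp1 binds) and CACGTG (an E-box).
Hmgcs1: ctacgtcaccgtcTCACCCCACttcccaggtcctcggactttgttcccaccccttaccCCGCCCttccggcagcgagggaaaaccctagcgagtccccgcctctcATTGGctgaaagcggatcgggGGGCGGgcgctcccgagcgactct
Mvd: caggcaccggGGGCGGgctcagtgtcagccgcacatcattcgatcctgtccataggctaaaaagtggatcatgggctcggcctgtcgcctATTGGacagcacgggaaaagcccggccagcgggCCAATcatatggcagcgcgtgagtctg
Mvk: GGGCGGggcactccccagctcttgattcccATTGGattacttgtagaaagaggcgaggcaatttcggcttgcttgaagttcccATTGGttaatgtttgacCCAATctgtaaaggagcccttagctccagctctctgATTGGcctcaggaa
The Hmgcs1 stretch holds TCACCCCAC starting 137 bases before the start site (position -137), together with CCAAT and GGGCGG. Mvd and Mvk hold no TCACCCCAC in these windows. Mvk, inside 1.5-fold, holds 4 matches to CCAAT, and Mvd, past it, holds 2.

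The RefSeq promoter table, which covers 250 bases before to 50 after each start site, matched 26 of the 31 genes. Fdps, Sqle and Stard4, all past 1.5-fold, and Fdft1 and Erlin2, both inside it, had no match. A gene counted as holding a motif when any of its start sites did, on either strand. CCAAT was in 22 of the 26, against 42.8% of 10320 coding genes whose mean CPM was 1 or more. It was absent from the synthesis gene Acat2 and the SREBP control genes Scap, Mbtps1 and Mbtps2, none of them past 1.5-fold. It was present in 10 of 10 matched genes that were and 12 of 16 that were not. Most genes without it are control genes, so this split by ratio is also a split by role, and the roles were not tested apart. GGGCGG was in 23 of 26 against 68.8%, and in the same 10 of 10 and in 13 of 16. CACGTG was in 6 of 26 against 11.4%. TCACCCCAC was in 1 of 26, Hmgcs1, against 0.727% of expressed coding genes, and the shorter CACCCCAC, which lies within it, was in Hmgcs1 and Acat2, against 3.80%. Allowing any base in the middle, TCACNCCAC, added no gene and was in 1.43% of expressed coding genes. Base composition was close to the background, with a median GC content of 62.4% in the 26 and 61.0% in the expressed coding genes. Only these spellings of the sterol regulatory element were searched, so a promoter without them may still hold another form of it. These matches describe letters in fixed windows and say nothing on whether a factor was bound in these glands.

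Squalene and lanosterol are made by 3 enzymes, and 2 of them were past 1.5-fold in replicate 1. Sqle, the squalene epoxidase and a flux-controlling step, had 2642 and 1022 counts and 28 and 9.88 TPM. Its log2 ratio of -1.08 was the lowest of all 31 genes. Lss, which folds the epoxide into lanosterol, had 25.7 and 12.7 TPM, with a ratio of 1.77-fold (1.64 to 1.90). Fdft1, the squalene synthase that commits farnesyl diphosphate to sterols, had 1919 and 1408 counts, 24.8 and 17.3 TPM, and a ratio of 1.12-fold (1.04 to 1.20). Fdft1 shares 774 exon bases with Ctsb on the opposite strand, which had 310 and 228 TPM. The libraries came from a directional kit, per the labels' protocols, but the strand setting of the counting is not given in the sources used here, so the split of reads between this pair is uncertain.

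After lanosterol, 9 genes encode the enzymes that demethylate and reduce the sterol, and 5 of them were past 1.5-fold in replicate 1. Cyp51, the lanosterol 14-alpha-demethylase, had 3402 and 1631 counts and 31.6 and 13.9 TPM, with a ratio of 1.71-fold (1.61 to 1.81). It shares 166 exon bases with Akap9 on the opposite strand. Msmo1, the C4-methyl oxidase, had 4964 and 2025 counts, 86.4 and 34.7 TPM, and a ratio of 2.01-fold (1.91 to 2.11). Hsd17b7, which reduces the 3-keto group in the same demethylation, had only 7.61 and 3.22 TPM and a ratio of 1.90-fold (1.69 to 2.15). Of the 3 partners in C4 demethylation, Nsdhl, the decarboxylating dehydrogenase, was inside 1.5-fold: 1106 and 685 counts, 15.3 and 8.57 TPM, and 1.32-fold (1.20 to 1.46).

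Sc5d, the lathosterol oxidase, had 2561 and 1315 counts and 26.5 and 12.7 TPM. Its ratio of 1.59-fold has an interval of 1.49 to 1.71 that reaches just below the 1.5-fold mark, the only one of the 13 to do so. Ebp, which shifts the ring double bond, had 17.3 and 11.6 TPM and a ratio of 1.15-fold (1.00 to 1.32). The Sc5d stretch before its RefSeq start is chr9:42264301-42264450 on the minus strand, shown because it is the only 1 of the 7 stretches printed here that holds CACGTG, beside a CCAAT match; capitals are as above.
Sc5d: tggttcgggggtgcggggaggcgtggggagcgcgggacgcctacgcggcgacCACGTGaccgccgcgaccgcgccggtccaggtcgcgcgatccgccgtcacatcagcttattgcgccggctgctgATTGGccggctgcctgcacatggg

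The sterol 14-reductase step can be carried out by the product of either of 2 genes, Tm7sf2 and Lbr, the second of which is also the lamin B receptor of the nuclear envelope. Tm7sf2 had 309 and 192 counts and 6.92 and 4.51 TPM, and Lbr had 638 and 450 counts and 6.19 and 5.21 TPM. Between libraries their ratios were 1.32-fold (1.10 to 1.59) for Tm7sf2 and 1.16-fold (1.03 to 1.31) for Lbr. The Lbr to Tm7sf2 ratio of TPM was 0.895 in replicate 1 and 1.16 in replicate 2, a mean of 1.02 ± 0.184 (SD, n = 2), so the higher gene differed between the libraries. In the second deposited transcript quantification the ratio was 1.85 and 1.60, with Lbr the higher in both. Tm7sf2 shares 532 exon bases on its own strand with Vps51, at 15.7 and 14.2 TPM, and its counts in replicate 2 were not whole, so part of its reads was split by the authors' counting.

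Dhcr7, the 7-dehydrocholesterol reductase that forms cholesterol itself in the Kandutsch-Russell branch (chr7:143823145-143848410, mm10), stood far above the other enzymes. It had 24510 counts and 328 TPM in replicate 1 and 12571 counts and 150 TPM in replicate 2. Among 22015 nuclear protein-coding genes it ranked 97 and 216 by TPM. The next synthesis gene, Fdps, was at 106 and 48.7 TPM, and Hmgcs1 and Msmo1 followed. Dhcr7 was 1.60-fold higher in replicate 1 (1.56 to 1.63), the narrowest interval of the 31 genes.

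**Figure D2:**
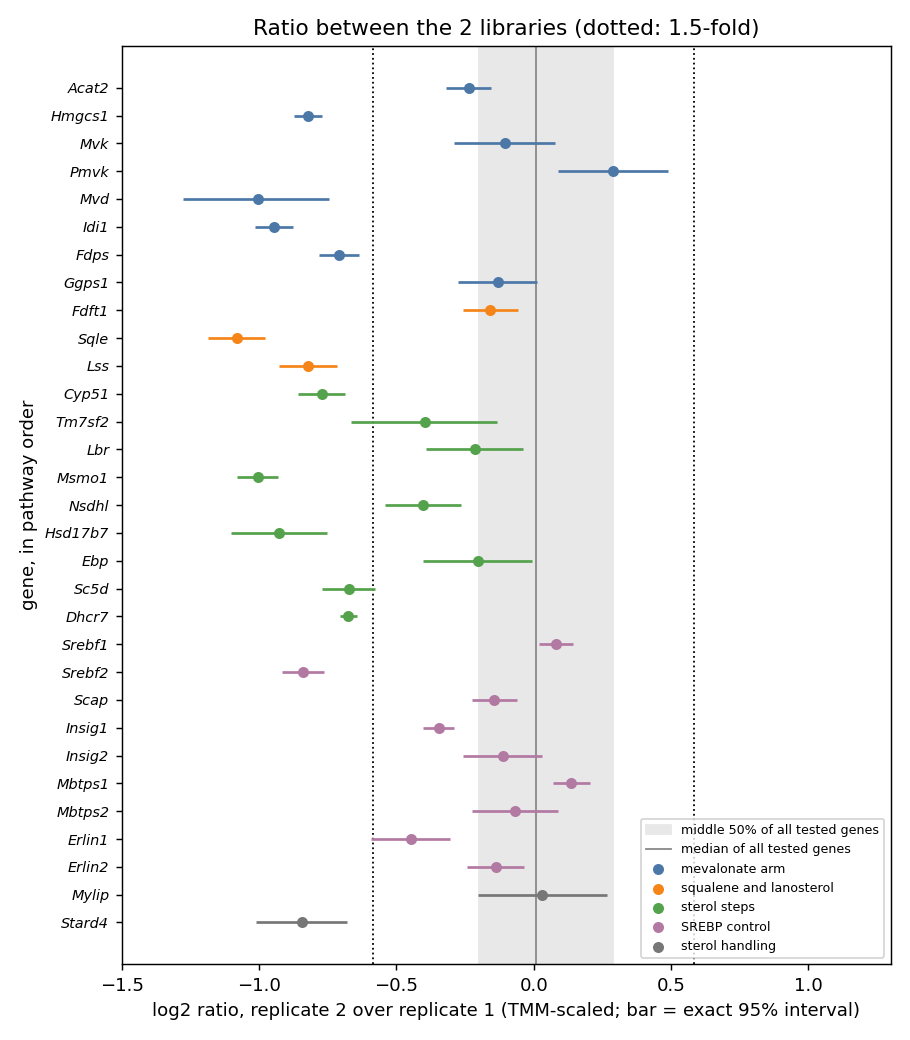
Log2 ratio of replicate 2 over replicate 1 (horizontal axis, TMM-scaled expected counts with a pseudocount of 0.5) for the 31 genes (vertical axis, pathway order), with bars for exact 95% counting intervals, colours for role, dotted lines at 1.5-fold, and the median and middle 50% of all 14780 tested genes in grey. The 13 genes left of the dotted line include 11 synthesis enzymes, Srebf2 and Stard4, and no gene lies to the right of the other line.

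Of the SREBP control genes, Srebf2 was past 1.5-fold and its paralog Srebf1 was not. Srebf2, whose product mainly drives cholesterol synthesis genes, had 4525 and 2069 counts and 34.1 and 14.2 TPM, a ratio of 1.79-fold (1.70 to 1.89). Srebf1, whose product is better known for fatty acid synthesis genes (chr11:60199089-60222581, minus strand, mm10), had 4526 and 3925 counts and 54.6 and 46.5 TPM, with a log2 ratio of 0.08 that was -0.02 with DESeq2 size factors. The Srebf1 to Srebf2 ratio of TPM was 1.60 in replicate 1 and 3.29 in replicate 2 (mean 2.44 ± 1.19, SD, n = 2). By summed TPM Srebf1 was therefore the higher of the pair in both libraries, by a factor that was not stable between them. That order rests partly on transcript types other than protein-coding. In the first transcript file these took 44.0% and 50.3% of Srebf1 TPM and 18.2% and 20.5% of Srebf2 TPM. The leading transcripts, Srebf1-201 and Srebf2-201, had 17.5 and 22.5 TPM in replicate 1 and 15.2 and 9.34 TPM in replicate 2. The second transcript quantification gave 1.53 and 2.93.

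Scap, the sterol-sensing escort of the SREBPs, had 2908 and 2156 counts and 25.8 and 17.2 TPM, and a ratio of 1.10-fold (1.04 to 1.17). Insig1, itself a target of SREBP and a retention factor, had 6615 and 4262 counts, 75.6 and 43.5 TPM, and a ratio of 1.27-fold (1.22 to 1.32). Insig2, the second retention factor, had 935 and 708 counts and 14.3 and 12.7 TPM, with an interval of 0.980 to 1.19-fold. Neither INSIG gene was past 1.5-fold. Insig1 exceeded Insig2 by 5.29-fold and 3.41-fold within the libraries (mean 4.35 ± 1.33, SD, n = 2).

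The protease genes and the erlin genes were all inside 1.5-fold. Mbtps1, the site-1 protease, had 3650 and 3287 counts and 27.0 and 22.8 TPM, with a ratio of 1.10-fold (1.05 to 1.15) toward replicate 2. Mbtps2, the site-2 protease, had 6.86 and 4.15 TPM and an interval of 0.939 to 1.17-fold, and it shares 2867 exon bases on its strand with Yy2, which had 0.440 and 0.260 TPM. Erlin1 and Erlin2, endoplasmic reticulum proteins that take part in degrading sterol-regulated proteins, had 9.80 and 6.22 TPM and 19.9 and 12.8 TPM. By deposited TPM Erlin1 stood at 0.493 and 0.487 of Erlin2 within the libraries (mean 0.490 ± 0.00433, SD, n = 2), and the second quantification put it at 0.345 and 0.264. By ratio between libraries Erlin1 was 1.36-fold (1.23 to 1.51) and Erlin2 1.10-fold (1.02 to 1.18) toward replicate 1.

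The Mbtps1 stretch, chr8:119558762-119558911 on the minus strand, is shown as a gene without CCAAT, and it holds GGGCGG letters. It does not stand for its group. Srebf1, Srebf2, Insig1, Insig2 and Erlin1 hold CCAAT in the promoter windows described above, and the synthesis gene Acat2 does not.
Mbtps1: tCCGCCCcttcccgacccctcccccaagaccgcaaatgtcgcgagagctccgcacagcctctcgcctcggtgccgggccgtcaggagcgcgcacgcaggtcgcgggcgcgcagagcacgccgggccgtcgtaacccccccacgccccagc

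Outside synthesis and SREBP processing, Stard4, a cytosolic sterol carrier, had 945 and 431 counts and 8.43 and 3.58 TPM, a ratio of 1.80-fold (1.60 to 2.02). Mylip, the ubiquitin ligase that removes lipoprotein receptors, was the lowest of the 31 genes at 3.16 and 2.52 TPM. Its interval of 0.832 to 1.15-fold spanned equality.

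Srebf1 has 2 well-known first exons, a distal one for the SREBP-1a protein and an internal one for SREBP-1c, and the transcript tables place RNA on both. The stretches before 2 of its 3 RefSeq starts are shown because they lead to these isoforms. The third start lies further upstream, at the start of Srebf1-204, a transcript of 367 bases with no coding sequence. In the first transcript file it took 22.3% and 22.0% of the gene's TPM. That share reflects its short length, since it had 115 and 107 of the gene's 4526 and 3925 expected counts. The second file listed it at 0. The distal one of the 2 shown is chr11:60220628-60220777 and the internal one chr11:60210472-60210621, both on the minus strand with capitals as above.
Srebf1 distal: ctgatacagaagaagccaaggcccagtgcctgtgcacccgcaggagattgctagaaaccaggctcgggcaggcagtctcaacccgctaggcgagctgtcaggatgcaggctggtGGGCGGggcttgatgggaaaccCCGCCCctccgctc
Srebf1 internal: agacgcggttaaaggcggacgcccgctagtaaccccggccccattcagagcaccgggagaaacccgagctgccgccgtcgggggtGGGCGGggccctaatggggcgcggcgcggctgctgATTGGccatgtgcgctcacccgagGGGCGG
The internal stretch holds CCAAT and GGGCGG letters, and the distal one holds GGGCGG letters without CCAAT. The annotated starts of Srebf1-201 (distal, 1134 codons) and Srebf1-207 (internal, 1022 codons annotated, with its 3′ end not found) lie 10139 bases apart.

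Srebf1-201 was the leading transcript in both libraries, with 17.5 and 15.2 TPM, or 32.1% and 32.7% of the gene's TPM. By expected counts its part was larger, at 2599 and 2479 of the gene's 4526 and 3925. Transcripts Srebf1-207 and Srebf1-208, which begin at or near the internal start, together took 16.9% and 17.7%. The 9 other transcripts, most of them short and without a full coding sequence, took 51.0% and 49.7%. In the second quantification Srebf1-201 held 30.8% and 30.5% and the internal pair 25% and 27.1%. The distal transcript exceeded Srebf1-207 by 2.19-fold and 2.89-fold in the first file and by 1.75-fold and 1.74-fold in the second, so its lead held in both libraries and both files while its size did not. The shares are the authors' estimates and carry no counting interval, and Srebf1 shares 109 exon bases with Rai1 on the opposite strand.

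**Figure D3:**
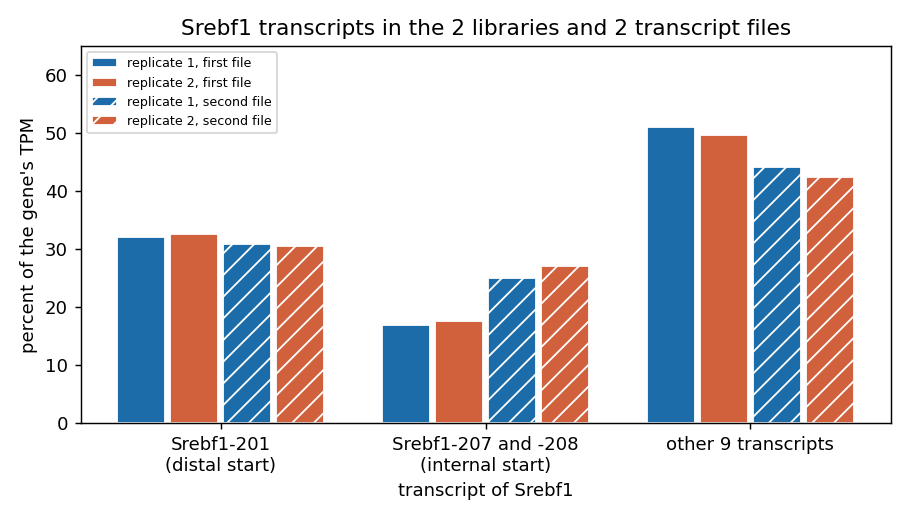
Percent of Srebf1 TPM (vertical axis, from 0) assigned to the distal transcript, the 2 internal-start transcripts and the 9 others (horizontal axis), as bars for each library and each deposited transcript file. The distal share stays between 30.5% and 32.7%, while the internal share moves from 16.9% and 17.7% in the first file to 25% and 27.1% in the second.

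Over all members, the leading transcript was the same in both libraries for 29 of 31 genes in the first transcript file and 28 of 31 in the second. Only 20 of 31 kept the same leader across both libraries and both files. Idi1-201 (96.2% and 99.3% of its gene), Sqle-201 (95.2% and 99.3%), Insig1-201 (93.8% and 96.3%) and Nsdhl-201 (97.7% and 99.2%) dominated in the first file and led in the second too. Mvd was split by method: Mvd-201, with 401 codons, held 97.6% and 100% in the first file, and Mvd-202, with 78, held 100% and 76.9% in the second. Hmgcs1-202 led in the first file at 82.6% and 80.9% and Hmgcs1-201 in the second at 78.8% and 80.7%, and both encode 520 codons. For Lss, transcript types other than protein-coding took 67.8% and 71.1% of TPM in the first file, a share that short transcripts raise. Lss-202, of 352 bases, took 24.8% and 36.0% of TPM with 56.9 and 44.9 expected counts. The protein-coding Lss-201, of 4667 bases, had 1209 and 628 of the gene's 2337 and 1083 counts. Gene levels also differed between the quantifications, with synthesis sums of 1811 and 1110 TPM in the second, while the log2 ratios of the 31 genes between libraries had a Pearson's r of 0.997 and a Spearman's rho of 0.989 between the 2 quantifications, again across genes.

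A list of 32 genes next to the pathway was compared with the synthesis genes: mitochondrial thiolase and HMG-CoA lyase, dolichol, ubiquinone and prenyl branches, electron donors, sterol-binding proteins, oxysterol enzymes, LXR receptors, and COPII and ubiquitin components. Of these 31 were tested, since Ch25h, an oxysterol synthase, had 7 and 14 counts. None was past 1.5-fold in replicate 1, where 5.30% of all tested genes were. Cyp27a1, the sterol 27-hydroxylase, alone was so in replicate 2, with 227 and 306 counts and 1.65-fold, where 12.0% of all tested genes were. With 31 genes, such counts are too small to set apart from those shares. Their median log2 ratio was -0.05, against -0.67 for the synthesis genes and 0.01 for all genes. Among the most abundant were Pgrmc1, a haem-binding partner of P450 enzymes, at 134 and 83.2 TPM, and the electron carriers and reductases Cyb5b (126 and 85.4 TPM), Cyb5r3 (96.2 and 64.95 TPM) and Por (98.0 and 58.1 TPM).

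Among the scalings run, the spike-ins alone changed which genes were past 1.5-fold. The same 13 genes were past it with DESeq2 size factors, total counts, TMM over coding genes, TMM without genes at least 32-fold higher in replicate 2, no filter, a stricter CPM minimum of 5, a pseudocount of 2 and the second quantification. Scaled to the spike-ins, all 31 genes were at least 1.5-fold higher in replicate 1, but so were 76.5% of all tested genes, against 2.43% in replicate 2, and the median log2 ratio of all genes moved from 0.01 to -0.88. A scaling shifts every gene's log2 ratio alike, so the difference of the synthesis median from the median of all genes, -0.68, is the same by construction under each scaling of these counts and is no check on it. The ratios of Srebf1 and Mylip changed sign with the scaling, and those of Pmvk and Mbtps1 were positive under every scaling run except the spike-ins. Expected counts of Acat2, Idi1, Fdps, Fdft1, Tm7sf2 and Mbtps2 were not whole, within a tolerance of 0.02, in at least 1 library, so some of their reads were shared with other entries by the authors' counting. In the annotation 12 of the 31 genes share exon bases with another gene, 9 of them with a gene on the opposite strand. The partner reached 1 TPM in both libraries for 5, which are Cyp51, Fdft1, Ggps1 (with Arid4b), Srebf1 and Tm7sf2, and the levels of these 5 are uncertain to that extent.

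**Figure D4:**
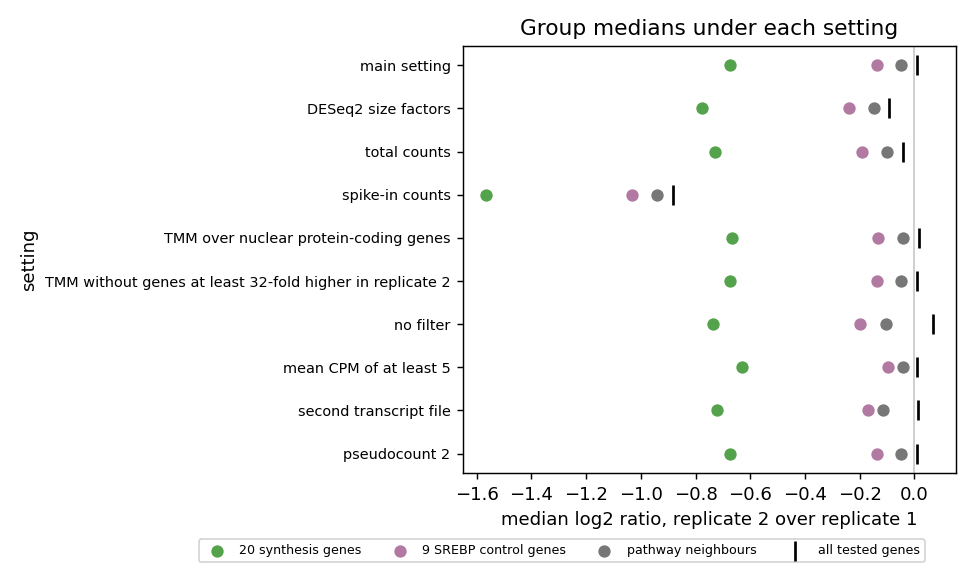
Median log2 ratio of replicate 2 over replicate 1 (horizontal axis) for the 20 synthesis genes, 9 SREBP control genes, pathway neighbours and all tested genes (points and black ticks) under each setting (vertical axis). Scalings move all 4 medians together, and the synthesis median lies at -0.67 in the main setting and at -1.57, against -0.88 for all genes, with spike-in scaling.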

How the data were processed

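Expected counts and TPM per gene, and per transcript in a first transcript file, were derived by the authors from a transcriptome alignment on mm10 with GENCODE M21, per the file headers and the deposited notes. Estimated counts and TPM in another column layout were deposited in a second transcript file per library. Which programs made these values is not given in the sources used here. TPM was scaled by the authors over all entries, and 26249 entries that name no gene plus 96 spike-ins were left out of the ratios.

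Counts were rounded and scaled by TMM (edgeR 4.0.16, R 4.3.3) over the 14780 of 55536 genes whose mean CPM was 1 or more. The TMM factors were 1.02 and 0.982. Log2 ratios used a pseudocount of 0.5. Ratios carry exact 95% intervals (Clopper-Pearson), which cover counting error only. They take the scaling as fixed and the rounded counts as independent reads. Without molecular identifiers the reads may repeat a molecule, so the intervals may be too narrow even for counting error. With 2 libraries of 1 group no test was run. Depth was 35813366 and 30628771 expected counts.

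All 31 genes are reported; of the neighbouring genes, those past 1.5-fold and the 5 with the highest mean TPM are named, except 1 that is not reported here. The genes, lists and settings were chosen with earlier results of these data known. Alternatives were DESeq2 1.42.0 size factors, total counts, spike-in counts, 2 other TMM gene sets, other filters, the second transcript file, a pseudocount of 2, a 2-fold threshold and rescaled TPM. Other computations ran in Python 3.11.15 (pandas 2.3.3, scipy 1.17.1, numpy 2.4.6), and figures in matplotlib 3.10.9. Promoter sequences are from RefSeq on GRCm38.p6.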

Additional observations from a re-analysis of the deposited data

How the results depend on the processing

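Of 10 alternatives, the spike-in scaling and the 2-fold threshold moved the counts of genes. With spike-ins, 31 members, 20 synthesis genes, 9 SREBP control genes and 26 neighbouring genes were at least 1.5-fold higher in replicate 1, with medians of -1.29, -1.57, -1.03 and -0.94, against -0.88 for all genes. At 2-fold, 3 members remained higher in replicate 1 (Mvd, Sqle and Msmo1), all 3 of them synthesis genes, and 0 SREBP control genes, against 1.74% of all genes. Mvd and Msmo1 lay on that line. In combinations chosen after seeing the data, 2-fold held for 1 member (Sqle) with TMM over coding genes or a CPM minimum of 5. It held for 5 with DESeq2 size factors (Idi1 and Hsd17b7 added), for 25 with spike-ins and for 2 to 4 otherwise. No share of all genes past 2-fold is at hand for these combinations, so these member counts cannot be set against one. The 25 came under a scaling that put the median of all genes at -0.88. The summed synthesis TPM averaged 1460 in the second transcript file and 2472 after rescaling over coding genes. In the second file Lbr over Tm7sf2 was 1.72 and Erlin1 over Erlin2 0.305, and the cause was not tested. With a mean CPM of at least 5, 40.7% of all genes past 1.5-fold lay higher in replicate 1, against 30.6% before and 43.1% with DESeq2 size factors.

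Taking each library alone, the summed synthesis TPM ranged from 446 to 939, Insig1 over Insig2 from 3.41 to 5.29, Srebf1 over Srebf2 from 1.60 to 3.29, Lbr over Tm7sf2 from 0.895 to 1.16 and Erlin1 over Erlin2 from 0.487 to 0.493. No ratio between libraries can be had without either library. No paired analysis was possible because the 2 libraries form 1 group. Depth limits Mvd, Tm7sf2, Mylip and Pmvk most, with at most 411 counts in a library, while Dhcr7 had at least 12571.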
